A study of Mus musculus with 12 samples.

Results

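The comparison described here sets 3 libraries labelled KO, EBSS against 3 libraries of wildtype cells in full medium. Its members were the 12152 genes, of 25117 gene symbols in the table, for which 3 or more of these 6 libraries reached 1 TPM. TPM, the transcript share that Salmon estimates, is a relative abundance corrected for transcript length. At the edge of this rule, 112 symbols that reached 1 but not 1.1 TPM in 3 libraries were taken, and 94 that reached 0.9 but not 1 TPM were not. Another 5472 symbols were at 0 in all 6 libraries.

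The study measured polyadenylated RNA in mouse embryonic fibroblasts (MEFs), primary cells cultured from embryos, in 4 groups of 3 libraries. All cells, the controls included, had the genotype Rbbp5 (flox/flox); Rosa26 CRE (+/+), that is, Rbbp5 alleles flanked by loxP sites, with Cre driven from Rosa26, a locus active in most tissues. By its labels the wildtype, full medium group had no tamoxifen and stayed in DMEM with serum. The labelled KO, EBSS group, again by its labels, had tamoxifen for 7 days and then 16 hours in Earle's balanced salt solution (EBSS), which holds salts and glucose but neither amino acids nor serum. As labelled, these 2 groups differ in genotype, in tamoxifen and in the medium, and these cannot be told apart here. The labels number the libraries as "brep" and do not say from how many embryos or cultures they came, so p-values measure the spread between these samples. TPM keeps no sequencing depth, so the depth of each library is unknown.

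Rbbp5 codes for a shared subunit of the enzyme complexes that place methyl groups on lysine 4 of histone H3 at promoters. Cells without amino acids usually activate GCN2, a kinase of the integrated stress response (ISR): it phosphorylates the translation factor eIF2, most protein synthesis slows, and the transcription factor ATF4 is made in larger amounts and switches on genes for amino acid synthesis, uptake and tRNA charging. Misfolded protein in the endoplasmic reticulum (ER) feeds into the same pathway through PERK, and through IRE1 and ATF6 it also raises ER chaperones, the unfolded protein response (UPR). Loss of serum removes growth factor signals to the serum response factor (SRF), its actin-sensing partners and YAP, which drive cytoskeletal, matrix and immediate early genes in fibroblasts.

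Rbbp5 (ENSMUSG00000026439.14, chr1:132477365-132505659 on GRCm38) did not follow the KO label. It was at 26.2, 25.7 and 26.2 TPM in wildtype, full medium and at 31.9, 24.6 and 23 TPM in replicates 1, 2 and 3 of labelled KO, EBSS. Replicate 1 lay above all 3 wildtype values and replicates 2 and 3 below them (log2 change 0.01, SE 0.12, limma adjusted p = 0.97). Without replicate 1 the change was −0.13 (adjusted p = 0.0388). KO libraries in full medium were at 7.47 to 9.34 TPM, and no labelled KO, EBSS library came near that range. Labelled wildtype, EBSS, whose labels give no tamoxifen, was at 11.8 to 14 TPM, below all wildtype, full medium and all labelled KO, EBSS values. By TPM, Rbbp5 thus stood in the EBSS groups in the reverse order of their genotype labels. The median tested gene was also low in labelled wildtype, EBSS, at 11 to 11.5 TPM. It was at 24.3 to 24.5 TPM in wildtype, full medium and 19.2 to 21.3 TPM in KO, full medium. In labelled KO, EBSS it was at 22.8 to 24.9 TPM. The part of this make-up in the Rbbp5 TPM of labelled wildtype, EBSS was not tested. Whether the labels of the 2 EBSS groups are exchanged cannot be told from the table. Genotype, tamoxifen and medium are known here only as labelled. The group is therefore called by its label throughout, and every direction drawn from it is for the libraries labelled KO, EBSS. Of 21 tested SET1/COMPASS and MLL subunits, 1 was called, a share close to the 3.48% of all genes called: Kmt2d, a histone methyltransferase. It was at 9.24, 9.48 and 9.33 TPM and 11.5, 12.3 and 11.7 TPM (log2 change 0.31, adjusted p = 0.0484).

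The cells looked like fibroblasts in all 6 libraries. All 14 fibroblast markers passed the filter, and their summed level was 9294 to 9559 TPM in wildtype and 6159, 9285 and 9372 TPM in replicates 1, 2 and 3 of labelled KO, EBSS. Replicate 1 was below the other 5 libraries for 12 of the 14. Of 10 macrophage markers 2 passed, with a summed level of 29.5 to 30.6 TPM in wildtype and 31.2, 34 and 32 TPM in labelled KO, EBSS. The leukocyte gene Ptprc was at most at 0.0285 TPM and the macrophage gene Adgre1 was listed at 0 in all 6 libraries. Endothelial (2 of 9 passed), skeletal muscle (4 of 12) and adipocyte (4 of 9) markers summed to at most 9.12, 12.1 and 70.6 TPM. Epithelial markers (5 of 11 passed, mostly the keratin Krt19) summed to 172 to 186 TPM in wildtype and 111, 152 and 159.9 TPM in labelled KO, EBSS. Neural markers (5 of 10 passed) held 2 genes at least 2-fold from wildtype in replicate 1. The intermediate filament gene Nes, at 132, 144 and 136 TPM in wildtype, was at 52.5, 160.3 and 163 TPM. The tubulin gene Tubb3, at 11.7, 12.1 and 12 TPM, was at 42, 13 and 14.2 TPM. Cartilage and bone markers (3 of 10 passed) were carried by osteopontin, Spp1, at 8253, 8412 and 8161 TPM in wildtype and 3590.2, 7414 and 7499 TPM in labelled KO, EBSS. In bulk RNA fewer cells of a type and less RNA per cell cannot be told apart, and the part of these markers in the results was not tested.

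Replicate 1 of labelled KO, EBSS stood apart from the other 5 libraries. It was at least 2-fold from each of them at 593 to 682 genes, measured on log2(TPM + 1), where differences of weakly expressed genes are compressed. Replicates 2 and 3 differed so at 43 genes, the wildtype libraries among themselves at 16 to 46, and replicates 2 and 3 from the wildtype libraries at 59 to 85. Whether the medium of replicates 2 and 3 was as labelled was not tested. Against the wildtype mean, replicate 1 was at least 2-fold higher for 343 genes (2.82% of the 12152) and at least 2-fold lower for 309 (2.54%). Replicate 2 had 34 genes higher (0.28%) and 42 lower (0.346%), and replicate 3 had 35 higher (0.288%) and 35 lower (0.288%). Of the 343 genes, 330 were in replicate 1 above every other library, and 296 were within 1.5-fold of the wildtype mean in both replicates 2 and 3. Of the 309 genes, 283 were below every other library and 269 were within 1.5-fold in replicates 2 and 3. The reverse class, at least 2-fold in replicates 2 and 3 and within 1.5-fold in replicate 1, held 0 higher genes and 1 lower gene, Zfp965, which was also listed at 0 in a wildtype library. In all 3 libraries 13 genes were at least 2-fold higher and 12 lower, most of them small RNAs, predicted genes and pseudogenes. These single-library values have no replicate and no test, and what set replicate 1 apart is not given in the labels. For the markers above and the gene lists below, some counts are of members with replicate 1 above or below all other libraries. The share of all genes so placed was not counted, so these counts have no background beside them.

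**Figure D1:**
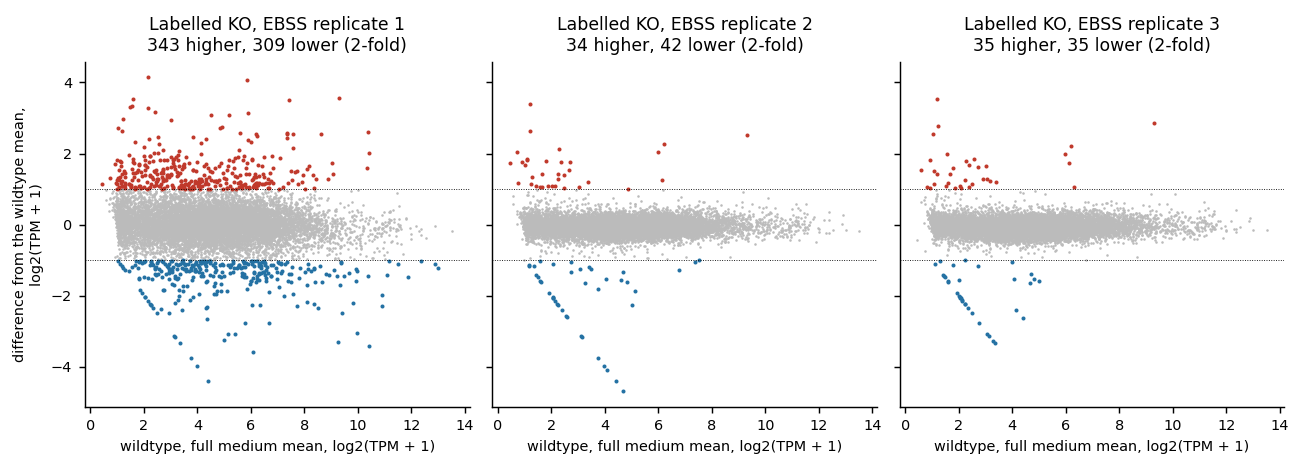
Each panel plots, for 1 labelled KO, EBSS library, the difference from the wildtype, full medium mean (vertical axis, log2(TPM + 1)) against that mean (horizontal axis, log2(TPM + 1)) for the 12152 genes; red and blue points are at least 2-fold higher or lower (dotted lines). Replicate 1 has 343 red and 309 blue points at all levels of expression, while replicates 2 and 3 have 34 and 35 red and 42 and 35 blue points, and points on the falling diagonal are genes listed at 0.

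The ISR regulators made up the highest group of replicate 1. Of 24 members found, 22 passed the filter, and 17 of them were at least 2-fold higher in replicate 1 (2.82% of all genes were) and 0 lower, with a median difference of 1.45 against 0.01 for all genes. In replicates 2 and 3, 0 of the 22 were 2-fold in either direction and the medians were 0.05 and −0.05. Values are given for wildtype replicates 1, 2 and 3 and then for labelled KO, EBSS replicates 1, 2 and 3. Ddit3, which codes for CHOP, a pro-apoptotic transcription factor (chr10:127290774-127296288), was at 186, 172 and 157 TPM in wildtype and at 1937, 249 and 160.3 TPM in replicates 1, 2 and 3. Replicate 1 was far above the other 5, replicate 2 was above the wildtype values and replicate 3 was among them. Herpud1, an ER membrane protein of ER-associated degradation (chr8:94386438-94395377), was at 57.3, 55.3 and 57.3 TPM and 956, 87.1 and 59.1 TPM, differences of 4.05, 0.61 and 0.06. Again only replicate 1 was more than 2-fold away. Trib3, a pseudokinase induced by CHOP, was at 40.8, 31 and 35.5 TPM and 307, 27.1 and 21 TPM, so replicates 2 and 3 were below the wildtype values while replicate 1 was above them. Atf4 itself was at 511, 531 and 552 TPM and 1420.0, 533 and 507 TPM. Atf3, a related stress factor, was at 21.4, 18.1 and 18.1 TPM and 106, 19.1 and 16.4 TPM. Ppp1r15a (GADD34), which directs dephosphorylation of eIF2, was at 72.9, 77.2 and 71 TPM and 420.3, 93 and 72.1 TPM. For these last 3 genes replicates 2 and 3 lay within 1.5-fold of the wildtype mean. Chac1, a glutathione-degrading enzyme (chr2:119351229-119354381), was at 29, 28.5 and 29.2 TPM and 199, 30.4 and 23.1 TPM. The amino acid sensor gene Sesn2 was at 15.5, 14.2 and 15.3 TPM and 53.6, 14.2 and 12.7 TPM. Vegfa, Ddit4, Cebpb, Cebpg and the kinase gene Eif2ak4 (GCN2) were the 5 members under 2-fold in replicate 1. Eif2ak4, the lowest, was at 28, 29.5 and 29 TPM and 20.9, 25.4 and 24.1 TPM.

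Enzymes that make amino acids followed the same split. Of 25 tested members, 14 were at least 2-fold higher in replicate 1 and 0 lower (median 1.02), against 0 and 0 in replicates 2 and 3 (medians −0.08 and −0.11). Asns, asparagine synthetase (chr6:7675169-7693254), was at 144, 129 and 137 TPM in wildtype and at 499, 149 and 137 TPM in labelled KO, EBSS. Gpt2, a mitochondrial alanine aminotransferase, was at 14.2, 12.6 and 13.4 TPM and 77.9, 15.1 and 13 TPM. Cth, which makes cysteine, was at 16.8, 16.1 and 16.6 TPM and 68.2, 13.4 and 11.7 TPM. In all 3 genes replicate 1 was the highest of the 6 libraries and replicates 2 and 3 were within 1.5-fold of the wildtype mean. Shmt2, a serine hydroxymethyltransferase of mitochondria, was at 296, 284 and 292 TPM and 908, 309 and 299 TPM. Psph, which makes serine, was at 59.8, 54.4 and 57.2 TPM and 191, 55 and 51.5 TPM, and both were highest in replicate 1.

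Amino acid transporters were less uniform. Of 24 tested, 7 were at least 2-fold higher and 1 lower in replicate 1, and 0 in replicates 2 and 3. Slc7a11, the cystine importer (chr3:49892526-50443614), was at 1.83, 1.75 and 1.79 TPM and 26.8, 2.37 and 1.82 TPM. Its obligate partner Slc3a2 was at 162, 165 and 155 TPM and 959, 182 and 167 TPM. Slc7a5, the leucine importer that pairs with the same chain, was at 63.7, 53.8 and 57.3 TPM and 307, 62.6 and 55.5 TPM. Slc6a9, a glycine transporter, was at 23.7, 20.3 and 20.6 TPM and 191, 27.8 and 21.9 TPM. These 4 genes had replicate 1 far above the rest. Slc38a2, a glutamine transporter, was less than 1.5-fold away in all 3 libraries, at 187, 171 and 187 TPM and 232, 162 and 154 TPM. Slc38a4, the lower member, was at 12.8, 13.2 and 13.6 TPM and 5.35, 11 and 11.7 TPM.

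Cytosolic tRNA synthetases, which load amino acids onto tRNA, had 11 of 20 members at least 2-fold higher in replicate 1 and 0 lower (median 1.08; −0.06 and −0.12 in replicates 2 and 3). Sars, for serine, was at 114, 108 and 112 TPM and 335, 112 and 103 TPM. Aars, for alanine, was at 188, 181 and 174 TPM and 519, 176 and 168 TPM. Qars, for glutamine, was at 99.7, 105 and 101 TPM and 98, 103 and 103 TPM. Dars, for aspartate, was at 93.8, 93.7 and 97.6 TPM and 91.3, 80 and 78.9 TPM, and both were within 1.5-fold in every library.

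Promoters of these genes are shown because ATF4 with C/EBP partners is known to bind a composite element, the C/EBP-ATF response element. The letters TGATGNAA on either strand, searched from 250 bases before to 50 after the start site, were in 252 of 9700 promoters of tested genes (2.6%), and in 29 of 265 promoters of genes at least 2-fold higher in replicate 1 (10.9%) and 2 of 204 of those 2-fold lower (0.98%). They were in 7 of 20 ISR regulators (Atf3, Chac1, Herpud1, Jdp2, Nupr1, Trib3 and Vldlr), 5 of 13 tRNA synthetases and 4 of 20 amino acid synthesis enzymes. Herpud1 and Slc7a11, 2 of the genes with the largest differences in replicate 1, both have it. The bases before their starts (RefSeq, GRCm38.p6, chr8:94386179-94386428 on the plus strand and chr3:50443615-50443863 on the minus strand) are given 5′ to 3′ with the matches in capitals.
Herpud1: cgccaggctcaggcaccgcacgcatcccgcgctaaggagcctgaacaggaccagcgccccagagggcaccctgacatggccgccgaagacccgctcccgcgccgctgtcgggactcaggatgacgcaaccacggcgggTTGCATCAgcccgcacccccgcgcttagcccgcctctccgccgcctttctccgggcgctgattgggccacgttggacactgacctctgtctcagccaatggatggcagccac
Slc7a11: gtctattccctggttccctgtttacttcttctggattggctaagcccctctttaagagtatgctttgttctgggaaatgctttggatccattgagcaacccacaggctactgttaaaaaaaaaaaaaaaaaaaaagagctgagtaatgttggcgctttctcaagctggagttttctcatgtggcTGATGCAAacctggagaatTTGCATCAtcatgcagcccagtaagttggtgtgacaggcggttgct
The match begins 112 bases before the RefSeq start of Herpud1, on the reverse strand, and those of Slc7a11 begin 66 bases before its start, on the same strand, and 47 bases before it, on the reverse strand. A match is a description of these letters and does not show binding.

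ER chaperones and folding enzymes were the second group that set replicate 1 apart. All 31 passed the filter, 16 were at least 2-fold higher in replicate 1 and 0 lower (median 1.16), and 0 were 2-fold in replicates 2 and 3 (medians 0.07 and 0.03). Their summed level was 10711 to 11251 TPM in wildtype and 32658, 12325 and 11754 TPM in replicates 1, 2 and 3. Hspa5, which codes for BiP, the main ER chaperone, was at 1293, 1333 and 1338 TPM and 8019, 1549 and 1388 TPM. Hsp90b1, the ER member of its chaperone family, was at 1317, 1379 and 1356 TPM and 5472, 1486 and 1424 TPM. Sdf2l1, a cofactor of BiP (chr16:17130138-17132383), was at 57.9, 58.8 and 60.1 TPM and 526, 80.8 and 64.1 TPM. Manf, a secreted ER-stress protein, was at 395, 388 and 387 TPM and 2274, 525 and 493 TPM. All 3 labelled KO, EBSS libraries were above wildtype in these 4 genes, replicate 1 by 2.60, 2.02, 3.14 and 2.54 and replicates 2 and 3 by at most 0.45 on the log2 scale. None was called over the 3 libraries, with adjusted p of 0.42, 0.42, 0.38 and 0.3. Without replicate 1, Manf was called higher at 0.38 (adjusted p = 0.00132). The collagen-folding genes Fkbp10 and Fkbp14 and the cyclophilin gene Ppic were not above wildtype in replicate 1: Fkbp10 was at 178, 183 and 181 TPM and 163, 175 and 181 TPM.

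UPR regulators and ER-associated degradation genes had 7 of 33 members at least 2-fold higher in replicate 1 and 0 lower, with replicate 1 above the other 5 libraries for 26. Xbp1, the transcription factor spliced by IRE1, was at 46.3, 46.4 and 45.7 TPM and 199, 49.9 and 46.1 TPM. Syvn1, a ubiquitin ligase of ER-associated degradation, was at 44.5, 51.2 and 44.5 TPM and 283, 63.3 and 56.9 TPM. Dnajb9, a cochaperone that acts on IRE1 (chr12:44205559-44210326), was at 25.7, 27.9 and 30 TPM and 189.9, 34.6 and 28.8 TPM. The sensor genes Atf6 and Ern1 (IRE1) were under 2-fold in replicate 1 on log2(TPM + 1), Atf6 only just. Atf6 was at 25.5, 24.1 and 24.8 TPM and 50, 20.9 and 20.7 TPM. Ern1 was at 11.9, 12.9 and 12.2 TPM and 20.6, 10.7 and 10.2 TPM. Over the 3 libraries 1 of the 33 was called, where 3.48% of all genes were, and it had no such split. Creb3l1, a membrane-bound transcription factor of collagen-secreting cells (chr2:91982328-92024502), was at 52.6, 57.1 and 54.3 TPM and 70.4, 69.6 and 70 TPM (log2 change 0.35, SE 0.05, adjusted p = 0.0412), higher in 3 of 3 libraries.

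The promoters of Hsp90b1 and Creld2 are shown for the ER stress response element, CCAAT, any 9 bases and CCACG, to which ATF6 binds with NF-Y. This search was added after the values were seen. The letters, on either strand, were in 15 of 9700 promoters (0.155%), in 9 of 265 of the genes at least 2-fold higher in replicate 1 (3.4%), in 0 of 204 of those lower, and in 8 of 26 ER chaperone promoters (Calr, Canx, Creld2, Dnajc3, Ero1lb, Hsp90b1, Hspa5 and Pdia6). Creld2, an ER stress-induced protein, was at 178, 199 and 192 TPM in wildtype and 1118, 231 and 203 TPM in labelled KO, EBSS. The bases before the starts of Hsp90b1 (RefSeq, GRCm38.p6, chr10:86705510-86705694, minus strand) and Creld2 (chr15:88819396-88819645, plus strand), without any that GENCODE places in an exon, have the matches in capitals.
Hsp90b1: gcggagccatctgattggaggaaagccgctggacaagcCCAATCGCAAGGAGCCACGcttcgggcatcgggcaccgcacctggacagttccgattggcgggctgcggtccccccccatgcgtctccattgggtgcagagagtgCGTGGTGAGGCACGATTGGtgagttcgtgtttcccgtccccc
Creld2: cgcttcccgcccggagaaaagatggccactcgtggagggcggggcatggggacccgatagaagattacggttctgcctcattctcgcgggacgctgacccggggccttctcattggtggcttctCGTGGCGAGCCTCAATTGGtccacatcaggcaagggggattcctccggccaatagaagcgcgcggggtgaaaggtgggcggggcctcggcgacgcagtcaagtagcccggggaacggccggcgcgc
Those of Hsp90b1 begin 212 bases before its RefSeq start and, on the reverse strand, 107 bases before it. That of Creld2 begins 126 bases before the start, on the reverse strand.

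**Figure D2:**
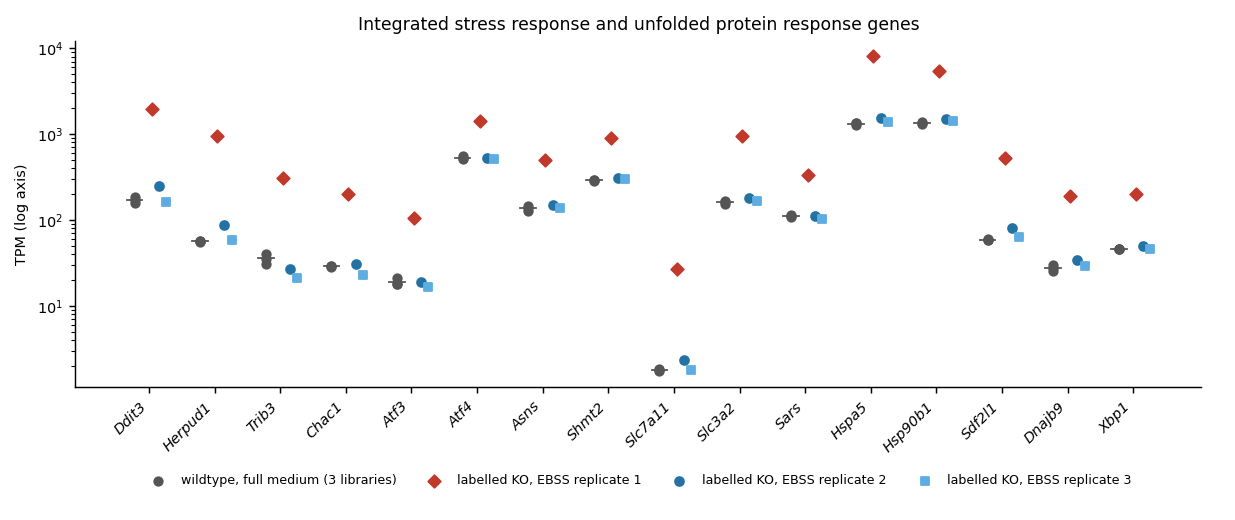
TPM (vertical log axis) of 16 ISR and UPR genes (horizontal axis) in each library: grey points are the 3 wildtype, full medium libraries with a bar at their mean, and coloured points are the 3 labelled KO, EBSS libraries. The genes were chosen after their values were seen. The red diamond of replicate 1 is above every other point in all 16 genes, from Slc7a11 at 26.8 TPM to Hspa5 at 8019 TPM, while replicates 2 and 3 lie close to the wildtype points.

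Oxidative stress and inflammatory genes also set replicate 1 apart, in part. Of 34 NRF2 and antioxidant genes, 9 were at least 2-fold higher in it and 0 lower. Hmox1, heme oxygenase, was at 177, 159.7 and 151 TPM and 961, 178 and 157 TPM. Gclc, which makes glutathione, was at 36.2, 34.1 and 34.7 TPM and 125, 34.9 and 28.3 TPM. The autophagy receptor and NRF2 target Sqstm1 (p62) was at 516, 545 and 496 TPM and 1727, 538 and 503 TPM. Against these, Prdx1, a peroxiredoxin, was lower in all 3 libraries and was called: it was at 966, 882 and 947 TPM and 691, 689 and 717 TPM (log2 change −0.41, adjusted p = 0.0411). Keap1, the inhibitor of NRF2, was called higher, at 50.6, 55.9 and 54.5 TPM and 68.2, 69.6 and 68.7 TPM (0.35, adjusted p = 0.0425). Of the 34 genes 1 was called higher and 1 lower, where 0.987% and 2.49% of all genes were. Of 37 NF-kB, cytokine and secretory genes, 9 were at least 2-fold higher and 6 lower in replicate 1. The adhesion gene Icam1 (chr9:21015985-21028817) was at 1.89, 1.9 and 1.96 TPM and 28.3, 2.91 and 1.88 TPM. The acute-phase gene Saa3 was at 3.55, 3.27 and 3.38 TPM and 76.4, 8.32 and 2.84 TPM, with replicate 2 also 2-fold higher. The cytokine Lif was at 25.1, 26.9 and 25.4 TPM and 6.39, 23.5 and 23.2 TPM. The chemokine Cxcl1 was at 158, 168 and 162 TPM and 78.2, 154 and 157 TPM, both lower in replicate 1. Over the 3 libraries 1 of the 37 was called, where 3.48% of all genes were: Tnfaip3, the NF-kB inhibitor A20. It was lower in 3 of 3 libraries at 16.4, 15.6 and 16.6 TPM and 9.9, 11.5 and 12.3 TPM (−0.50, adjusted p = 0.0483).

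Interferon-stimulated genes split the 3 libraries in opposite directions. Of 52 found 49 passed the filter, and replicate 1 was above all 5 other libraries for 44 of them, with 9 at least 2-fold higher and 0 lower. Its median difference was 0.53, while those of replicates 2 and 3 were −0.23 and −0.28 against −0.05 and −0.07 for all genes. Ifit1, which binds foreign RNA, was at 54.5, 54.7 and 56.1 TPM and 148, 47.3 and 44.5 TPM. Rsad2 (viperin) was at 7.27, 7.43 and 7.67 TPM and 27.2, 5.82 and 4.93 TPM. Mx2 was at 7.57, 7.84 and 7.85 TPM and 26.6, 5.41 and 4.87 TPM. In each of them replicate 1 was above, and replicates 2 and 3 below, all 3 wildtype values. Over the 3 libraries 1 of the 49 was called, where 3.48% of all genes were: Trim30a, an inhibitor of inflammatory signalling, lower at 7.75, 7.73 and 8.7 TPM and 5.9, 5.17 and 4.63 TPM (−0.54, adjusted p = 0.0484). Without replicate 1, 37 of the 49 were called lower and 0 higher, where 31.9% of all genes were called lower and 12.8% higher. Ifit1 illustrates the interferon-stimulated response element, GAAA, any 2 bases and GAAA on either strand, which was in 349 of 9700 promoters (3.6%), 18 of 34 interferon-stimulated promoters, 17 of 265 of the genes 2-fold higher in replicate 1 (6.42%) and 13 of 204 of those lower (6.37%). The bases before its start outside GENCODE exons (RefSeq, GRCm38.p6, chr19:34640639-34640870, plus strand) hold 2 matches, both on the reverse strand, in capitals.
Ifit1: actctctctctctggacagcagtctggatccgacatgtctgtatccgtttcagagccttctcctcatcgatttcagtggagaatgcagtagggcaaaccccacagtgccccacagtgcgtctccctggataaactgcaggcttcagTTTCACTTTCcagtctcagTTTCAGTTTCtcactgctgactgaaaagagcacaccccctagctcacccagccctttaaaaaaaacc
The matches begin 104 and 85 bases before the start site.

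Actin cytoskeleton and contractile genes were the lowest group of replicate 1. Of 33 tested, 11 were at least 2-fold lower in it (2.54% of all genes were) and 0 higher, and 31 were below all 5 other libraries. The median difference was −0.81 in replicate 1 and 0.01 and 0.01 in replicates 2 and 3. Their summed level was 36282 to 37660.2 TPM in wildtype, 20085 TPM in replicate 1, and 37637 and 38458 TPM in the other two. Actg1, cytoplasmic actin, was at 2288, 2204 and 2095 TPM and 815, 2344 and 2413 TPM. Tagln, transgelin, was at 1319, 1371 and 1299 TPM and 491, 1248 and 1265 TPM. Myl9, a myosin light chain, was at 475, 512 and 464 TPM and 181, 572 and 573 TPM, so that replicates 2 and 3 were above wildtype and replicate 1 below it. Vcl, vinculin, which links actin to focal adhesions, was at 250.3, 259 and 258 TPM and 101, 243 and 250.4 TPM. Tmsb4x, thymosin, which binds actin monomers, was lower in all 3 libraries, at 3911, 3664 and 3727 TPM and 1366, 2668 and 2879 TPM (−0.78, adjusted p = 0.16, and −0.44 with adjusted p = 0.0014 without replicate 1). The CArG box, which SRF binds, was in 149 of 9700 promoters (1.54%), 12 of 204 of the genes 2-fold lower in replicate 1 (5.88%), 5 of 265 of those higher (1.89%) and 5 of 28 actin cytoskeleton promoters (Actg1, Cnn2, Myl6, Myl9 and Vcl). The bases before the starts, outside GENCODE exons, of Vcl (RefSeq, GRCm38.p6, chr14:20929148-20929397, plus strand) and Myl9 (chr2:156775214-156775419, plus strand) have it in capitals.
Vcl: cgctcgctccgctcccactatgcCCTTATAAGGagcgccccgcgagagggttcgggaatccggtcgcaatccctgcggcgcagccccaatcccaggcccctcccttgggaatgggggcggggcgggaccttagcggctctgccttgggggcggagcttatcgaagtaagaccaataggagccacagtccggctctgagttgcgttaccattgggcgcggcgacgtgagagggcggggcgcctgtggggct
Myl9: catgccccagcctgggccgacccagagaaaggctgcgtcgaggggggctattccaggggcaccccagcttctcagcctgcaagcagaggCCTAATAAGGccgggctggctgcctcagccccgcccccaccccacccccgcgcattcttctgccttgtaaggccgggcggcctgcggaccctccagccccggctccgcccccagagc
It begins 227 and 161 bases before the start sites.

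Immediate early and serum-responsive genes had 10 of 42 members at least 2-fold lower in replicate 1 and 2 higher (median −0.61), and 0 in replicates 2 and 3 (medians 0.05 and 0.10). Ccn2 and Ccn1 code for matricellular proteins that are standard targets of YAP. Ccn2 was at 1353, 1379 and 1404 TPM and 128, 1345 and 1353 TPM. Ccn1 was at 707, 674 and 659 TPM and 121, 626 and 655 TPM. Hbegf, a ligand of the EGF receptor, was at 186, 196 and 188 TPM and 48.4, 173 and 163 TPM. Cyclin D1, Ccnd1, was at 126, 116 and 120.4 TPM and 51.2, 112 and 115 TPM. Egr2 was at 8.69, 10 and 9.17 TPM and 2.9, 9.21 and 9.84 TPM. In all 5 genes replicates 2 and 3 were within 1.5-fold of the wildtype mean. Klf4 and Nr4a3 were the 2 higher members. Klf4 was at 19.1, 19.7 and 18.2 TPM and 47.4, 19.5 and 17.6 TPM. Myc was just under 2-fold, at 144, 155 and 149.8 TPM and 297, 167 and 167 TPM. Over the 3 libraries 1 of the 42 was called, where 3.48% of all genes were: Jund. It was higher in 3 of 3 libraries at 78.1, 73 and 80.3 TPM and 93.2, 95.4 and 96.8 TPM (0.30, adjusted p = 0.0488).

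Extracellular matrix genes were lower in replicate 1 for 46 of 54 tested members against all 5 other libraries, with 8 at least 2-fold lower and 0 higher. Has2, which makes hyaluronan (chr15:56665627-56694539), was at 65, 66.3 and 68.2 TPM and 4.67, 64.1 and 63.6 TPM, the lowest relative value of all genes that met the naming rule for replicate 1. Thbs1, thrombospondin, was at 1005, 1006 and 1019 TPM and 121, 849 and 845 TPM, with replicates 2 and 3 also below wildtype. Fbln2, fibulin, was at 909, 908 and 904 TPM and 195, 781 and 819 TPM. Lox, which crosslinks collagen, was at 654, 599.7 and 662 TPM and 197, 525 and 541 TPM. The main collagen gene Col1a1 did not follow, at 1056, 1047 and 1049 TPM and 1000.1, 1277 and 1239 TPM. Other genes far below wildtype in replicate 1 alone included secreted factors. The activin subunit gene Inhba was at 103, 96.2 and 101 TPM and 14, 83.3 and 85.7 TPM. Fst, follistatin, which binds activin, was at 20.6, 18.3 and 19.8 TPM and 2.26, 16.3 and 17.8 TPM. Fgf2, a growth factor, was at 34.4, 35 and 34.2 TPM and 3.2, 29 and 26 TPM. The gap junction gene Gjb2 was at 41.2, 40.6 and 42.6 TPM and 4.03, 49.7 and 44.6 TPM. In these 4 genes replicates 2 and 3 were within 1.5-fold of the wildtype mean.

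Further genes far from wildtype in replicate 1 alone belonged to none of the groups above. Adm2, which codes for a secreted peptide of the adrenomedullin family, was at 5.04, 4.01 and 4 TPM in wildtype and 46.5, 5.17 and 4.81 TPM in labelled KO, EBSS. P2rx7, an ATP-gated ion channel, was at 3.61, 3.49 and 3.2 TPM and 41.9, 5.15 and 3.7 TPM. Acot2, a mitochondrial acyl-CoA thioesterase, was at 8.25, 6.27 and 7.09 TPM and 61.7, 8.1 and 6.27 TPM. Alkal1, a ligand of the ALK receptor kinases, was lower at 54.3, 49.2 and 56.5 TPM and 6.97, 40.8 and 40.9 TPM. In all 4 genes replicates 2 and 3 were within 1.5-fold of the wildtype mean.

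**Figure D3:**
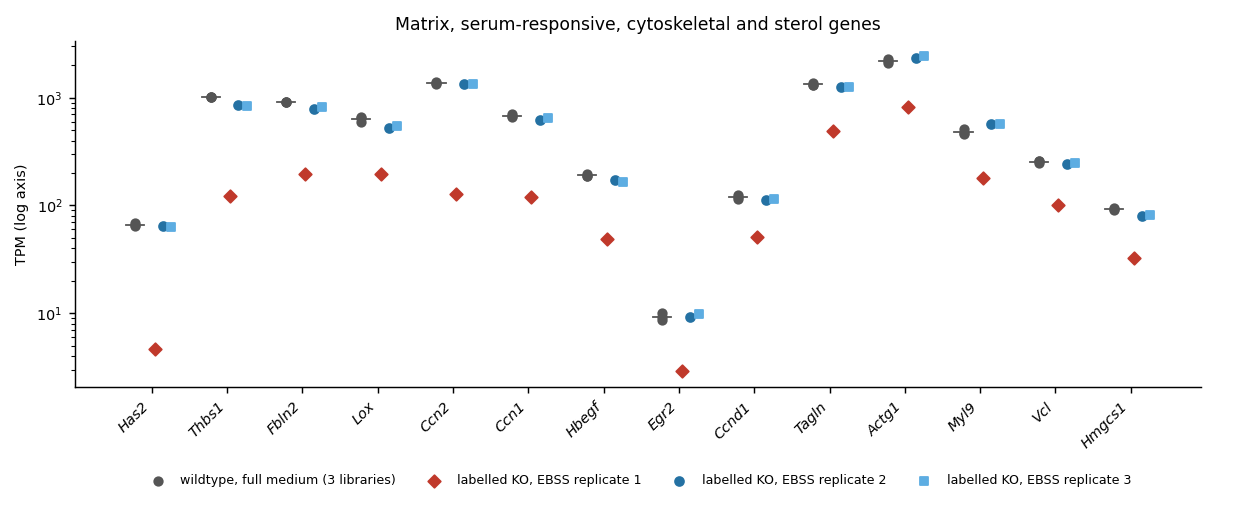
TPM (vertical log axis) of 14 matrix, serum-responsive, cytoskeletal and sterol genes (horizontal axis) in each library: grey points are the 3 wildtype, full medium libraries with a bar at their mean, and coloured points are the 3 labelled KO, EBSS libraries. The genes were chosen after their values were seen, and members of these lists that were higher in replicate 1 are not plotted. Replicate 1 is the lowest point of all 14 genes, from Egr2 at 2.9 TPM to Actg1 at 815 TPM, and replicates 2 and 3 lie near the wildtype points.

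Mitosis genes were mostly lower in replicate 1, by smaller amounts, while DNA replication and sterol genes were mixed. Of 56 mitosis genes 1 was 2-fold lower, Cdk1, at 132, 132 and 131 TPM and 62.5, 115 and 109 TPM, but 49 were below all 5 other libraries (median −0.54; −0.08 and −0.06 in replicates 2 and 3). Ect2, which starts the cleavage furrow, was called lower over the 3 libraries, at 49.6, 44.1 and 48.5 TPM and 30.5, 34.1 and 33.8 TPM (−0.52, SE 0.07, adjusted p = 0.0411). Of 50 DNA replication genes replicate 1 was below all 5 other libraries for 28 and above them for 11. Of the 50 genes 1 was called lower, a share close to the 2.49% of all genes: Orc6, at 122, 112 and 108 TPM and 88.5, 91.5 and 90.9 TPM (−0.34, adjusted p = 0.0484). Cholesterol synthesis and uptake had 4 of 26 members at least 2-fold lower in replicate 1 and 0 higher, with 15 below and 8 above all 5 other libraries. Hmgcs1 was at 93.4, 91 and 95.5 TPM and 32.6, 80 and 80.9 TPM. Members such as Fdps and Lss were above wildtype in it, Fdps at 238, 233 and 243 TPM and 336, 296 and 276 TPM.

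**Figure D4:**
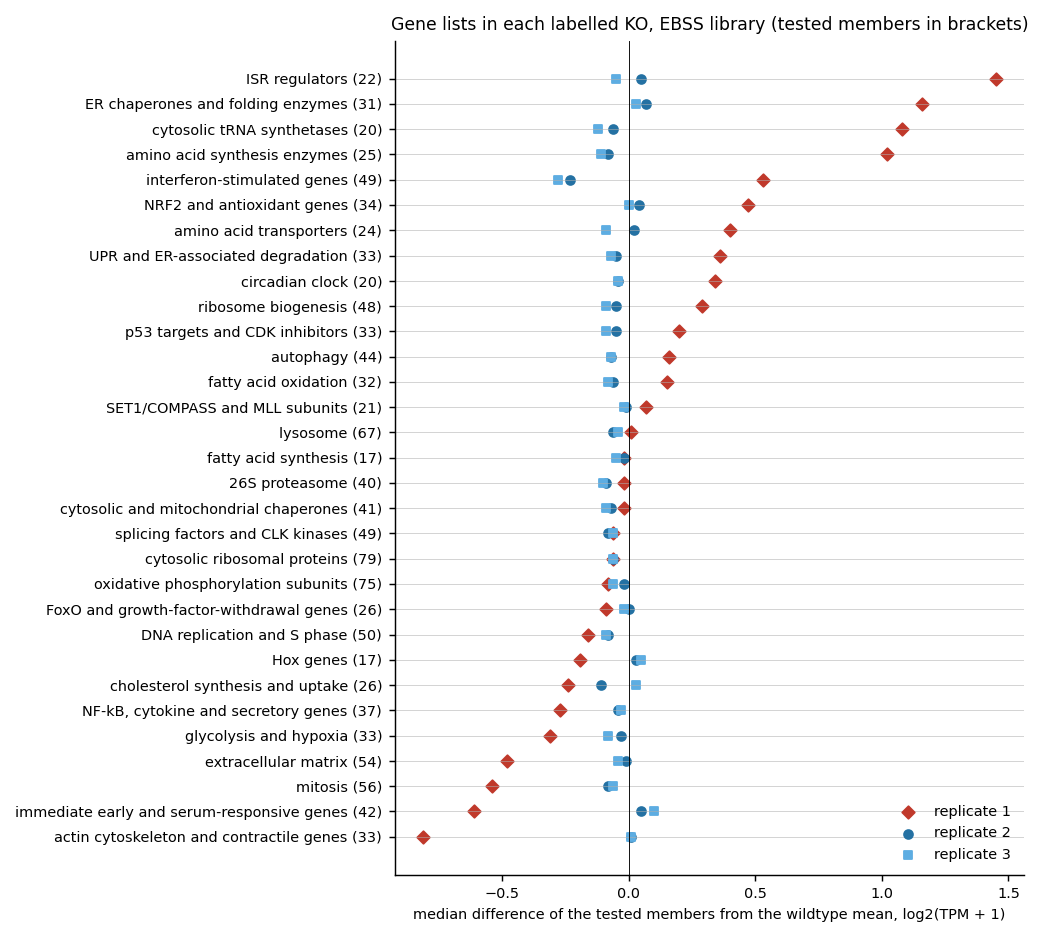
Median difference from the wildtype, full medium mean (horizontal axis, log2(TPM + 1)) over the tested members of each gene list (vertical axis, number of tested members in brackets) in each labelled KO, EBSS library, for the lists with at least 10 tested members. Replicate 1 spreads from −0.81 for actin cytoskeleton genes to 1.45 for ISR regulators, while replicates 2 and 3 stay between −0.28 and 0.1.

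Over all 3 libraries together, few genes differed by much. Limma called 423 of 12152 genes (3.48%), 120 higher (0.987%) and 303 lower (2.49%) in labelled KO, EBSS, and all 423 had groups that did not overlap, as did 4778 genes in all (39.3%). The median size of a called change was 0.41 on the log2 scale against a median of −0.03 for all genes, and 21 reached 2-fold, 5 of them protein-coding. With median-of-ratios scaling the calls were 117 higher and 67 lower, and with quantile normalization 140 and 103, so among these 3 scalings lower calls outnumbered higher ones with the TPM as deposited only. Without replicate 1 the same 423 genes were among 5423 called, 1552 higher (12.8%) and 3871 lower (31.9%), but the median size over the 5423 was 0.23, 120 reached 1.5-fold and 39 reached 2-fold. Without any of the other 5 libraries the count was 0 to 4 (1656 to 2752 genes at an unadjusted p under 0.05): 0 without wildtype replicate 1, 4 without wildtype replicate 2, 0 without wildtype replicate 3, 0 without labelled KO, EBSS replicate 2 and 2 without its replicate 3.

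The largest rises were noncoding RNAs. Bc1, a short RNA made by RNA polymerase III (chr7:144914470-144914637), was at 450.1, 1092 and 505 TPM in wildtype and 7463, 3600.0 and 4582 TPM in labelled KO, EBSS (log2 change 2.98, SE 0.42, adjusted p = 0.0411). Repeats related to Bc1 are spread over the mouse genome, so its level is uncertain. Rpph1, the RNA of ribonuclease P (chr14:50807449-50807767), was at 2.01, 2.78 and 2.62 TPM and 9.09, 10.9 and 9.49 TPM (1.64, SE 0.11, adjusted p = 0.0304). Snhg9, a host of small nucleolar RNA, was at 7.37, 7.73 and 6.42 TPM and 20.6, 16 and 24.4 TPM (1.37, adjusted p = 0.0407). In all 3 genes, as the naming rule required, every labelled KO, EBSS library was above every wildtype library. Of 4 tested structural RNAs without poly(A) tails, 1 was called, Rpph1, while some other RNAs without such tails fell and are given below. Of the structural RNAs not called, the ribosomal RNA precursor Rn45s was higher, at 68.8, 68.3 and 69.3 TPM and 109, 167 and 232 TPM (adjusted p = 0.0613). Rmrp was at 5.55, 3.06 and 3.28 TPM and 6.37, 20 and 15.8 TPM (adjusted p = 0.0982). Replicates 2 and 3 were above replicate 1 in both. The part of such RNA, which differs with poly(A) selection, in the called changes was not tested.

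Among protein-coding genes the largest rises were Sap25, H1f10, Mospd3, Zfp428, Wdr89, Ndufa12 and Pcgf2. Sap25, of the SIN3 corepressor complex (chr5:137641334-137642902), was at 6.63, 6.83 and 6.1 TPM and 18.6, 13.7 and 17.2 TPM (1.21, adjusted p = 0.0407). H1f10, a linker histone made outside S phase (chr6:87980421-87981637), was at 26.8, 28.5 and 29.1 TPM and 57.1, 57.4 and 54.9 TPM, nearly the same in all 3 libraries (0.98, SE 0.05, adjusted p = 0.02). Pcgf2, a Polycomb subunit, was at 28.8, 31.2 and 29.7 TPM and 55, 46 and 42.7 TPM (0.65, adjusted p = 0.0425). Mospd3, Zfp428 and Wdr89 changed by 0.76, 0.71 and 0.69 (adjusted p = 0.0407, 0.0441 and 0.042). Of 75 oxidative phosphorylation subunits 6 were called higher, 3 lower and 66 not, where 0.987% of all genes were called higher and 2.49% lower. Ndufa12, of complex I, was at 162, 199 and 179.9 TPM and 324, 263 and 276 TPM (0.67, adjusted p = 0.0467). Ndufv3, of the same complex, was at 97.7, 113 and 105 TPM and 156, 172 and 163 TPM (0.63, adjusted p = 0.0407). Called higher genes had a median transcript length of 806 bases, called lower genes 1547 and all tested genes 1380. Length was weakly related to the change across genes, which are not independent (Spearman rho −0.10, n = 11952), and its part in the calls was not tested.

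The largest falls again included RNAs that a poly(A) library captures poorly. Mir221, a microRNA locus (chrX:19146294-19146388), was at 7.74, 5.15 and 11.3 TPM in wildtype and was listed at 0 in all 3 labelled KO, EBSS libraries, and also in the other 6 libraries of the series. H2ac10, a replication-dependent histone gene whose mRNA lacks a poly(A) tail (chr13:23533906-23534304), was at 27.1, 30.5 and 36.5 TPM and 2.4, 5.76 and 9.71 TPM (−2.36, adjusted p = 0.0483). Of 7 other replication-dependent histone genes tested, 0 were called, where 3.48% of all genes were, and their median log2 change was 0.26. The small nucleolar RNAs Snora3, Snora28 and Snora16a fell by 1.53, 1.13 and 0.93 on the log2 scale (adjusted p = 0.0401, 0.0412 and 0.0483); they lie within host genes whose reads could be counted with them. Snord14d and Snord88c were not called (limma adjusted p = 0.116 and 0.148), though all 3 libraries were at least 2-fold below the wildtype mean. Their differences were −3.98, −3.98 and −1.05 and −1.63, −4.67 and −1.64. Their wildtype values were scattered, at 27.8, 6.99 and 16.3 TPM and 48.5, 17.3 and 17.3 TPM. Malat1, an abundant nuclear RNA (chr19:5795690-5802672), was at 405, 395 and 415 TPM and 132, 214 and 216 TPM (−1.14, SE 0.20, adjusted p = 0.0483). Replicate 1 was the lowest, and no overlap of the groups was part of the naming rule. Of coding genes, Wnt7a, a secreted Wnt ligand (chr6:91363981-91411363), was at 6.85, 5.07 and 4.97 TPM and 0.857, 1.61 and 1.92 TPM (−1.44, adjusted p = 0.0411). Cav2, a caveolin (chr6:17281185-17289115), was at 74.3, 60.3 and 71.9 TPM and 26.3, 38.3 and 39.5 TPM (−0.98, adjusted p = 0.0484). Zbed6, a transcription factor gene that lies within another gene, was at 23.9, 22 and 24 TPM and 11.6, 13.8 and 13.1 TPM (−0.81, adjusted p = 0.0407). Lnpep, an aminopeptidase, was at 19.9, 17.1 and 19 TPM and 9.52, 11.5 and 11.5 TPM (−0.73, adjusted p = 0.0411).

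Most of the calls were under 2-fold. Srsf3, a splicing factor, was at 357, 346 and 381 TPM and 233, 256 and 252 TPM (−0.55, SE 0.06, adjusted p = 0.0407), 1 of 49 splicing genes called, where 3.48% of all genes were. Clock, of the circadian activator, was at 17.6, 17 and 17.6 TPM and 13.2, 13.4 and 12.9 TPM (−0.38, adjusted p = 0.0411), the member called among 20 clock genes, where 3.48% of all genes were called. Of 44 autophagy genes 0 were called higher and 3 lower, where 0.987% and 2.49% of all genes were. Rb1cc1 (FIP200), of the kinase complex that starts autophagy, was at 24.6, 22.8 and 24.1 TPM and 18, 18.1 and 17.9 TPM (−0.38, adjusted p = 0.0411), and the mitophagy receptor genes Fundc1 and Bnip3l fell by 0.36 and 0.29 (adjusted p = 0.0484 and 0.0493). Of 67 lysosomal genes 1 was called, against 3.48% of all genes: Lamp2, at 445, 453 and 445 TPM and 343, 370.0 and 339.7 TPM (−0.35, adjusted p = 0.042). The CLEAR element of lysosomal genes, TCAC followed by GTGA, was in 225 of 9700 promoters (2.32%), 8 of 54 lysosomal promoters, 5 of 265 of the genes 2-fold higher in replicate 1 and 2 of 204 of those lower. Of 26 FoxO and growth-factor-withdrawal genes 1 was called higher and 1 lower, where 0.987% and 2.49% of all genes were. Cdkn1c (p57), a cell cycle inhibitor, was higher at 32.1, 34.4 and 34.7 TPM and 47.3, 51.2 and 49.2 TPM (0.53, adjusted p = 0.0407). Fbxo30, a ubiquitin ligase gene, was lower at 23.9, 21.6 and 24 TPM and 15.9, 16.8 and 16.6 TPM (−0.47, adjusted p = 0.0411). Of 41 cytosolic and mitochondrial chaperones 2 were called higher and 1 lower, where 0.987% and 2.49% of all genes were. Cct3, of the cytosolic chaperonin, was lower at 427, 402 and 425 TPM and 331, 331 and 336 TPM (−0.33, adjusted p = 0.0419). Bag3, a cochaperone, was higher at 41.9, 45.7 and 44.5 TPM and 62.8, 56.2 and 59.4 TPM (0.42, adjusted p = 0.042). Psma5 of the proteasome core and Psme1 of its activator changed by −0.40 and 0.40 (adjusted p = 0.0411 and 0.0425). Of 40 proteasome genes 1 was called higher and 1 lower, where 0.987% and 2.49% of all genes were. Of 79 cytosolic ribosomal protein genes 3 were called higher and 3 lower, where 0.987% and 2.49% of all genes were, and these share reads with many pseudogenes.

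**Figure D5:**
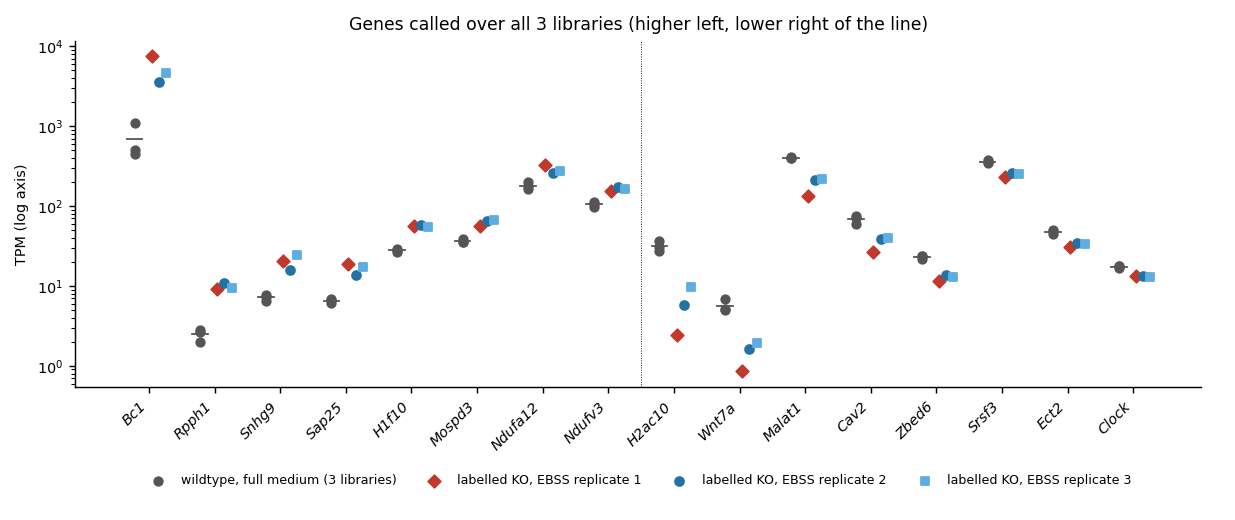
TPM (vertical log axis) of 16 genes called over the 3 labelled KO, EBSS libraries (horizontal axis; higher left of the dotted line, lower right of it): grey points are the 3 wildtype, full medium libraries with a bar at their mean, and coloured points are the 3 labelled KO, EBSS libraries. As in all 423 called genes, the 2 groups do not overlap in any of the 16 genes, so the 3 labelled KO, EBSS points lie on the same side of the wildtype points.

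The other 2 groups of the series are set side by side here without a test. By their labels KO, full medium had tamoxifen and full medium. Labelled wildtype, EBSS had, again by its labels, EBSS without tamoxifen. Its Rbbp5 TPM was below that of wildtype, full medium, with the limits given above. Ribosomal protein genes held 17.2% to 19.2% of TPM in KO, full medium and 32.7% to 35.3% in labelled wildtype, EBSS. The median tested gene of labelled wildtype, EBSS was at 11 to 11.5 TPM, and its replicate 3 had 888 tested genes at 0. TPM is a share, and the part of this make-up in lower values there was not tested. Ddit3, at 1937 TPM in replicate 1, was at 405 to 464 TPM in KO, full medium and at 557 to 664 TPM in labelled wildtype, EBSS. Hspa5, at 8019 TPM in replicate 1, was at 541 to 603 TPM and 1537 to 1961 TPM, and Sdf2l1, at 526 TPM, at 110.4 to 116 TPM and 18 to 29 TPM. Asns, at 499 TPM, was at 207 to 216 TPM and 106 to 163 TPM. For these 4 genes replicate 1 was above both other groups. Ccn2, at 128 TPM in replicate 1, was at 1626 to 1720.4 TPM in KO, full medium and at 62.2 to 72.8 TPM in labelled wildtype, EBSS, and Thbs1, at 121 TPM, was at 488 to 756 TPM and 46.2 to 62 TPM. For both genes replicate 1 lay between labelled wildtype, EBSS and the other groups. Replicates 2 and 3 of Thbs1, at 849 and 845 TPM, lay between KO, full medium and wildtype, full medium. Some genes were far higher in labelled KO, EBSS than in both other groups, but so they were in wildtype, full medium. Wildtype, full medium was at 8161 to 8412 TPM for Spp1 and 40.6 to 42.6 TPM for Gjb2. For Creb3l1 it was at 52.6 to 57.1 TPM and for Trim30a at 7.73 to 8.7 TPM. Spp1, at 3590.2, 7414 and 7499 TPM in labelled KO, EBSS, was at 273 to 329 TPM and 458 to 511 TPM. Gjb2, at 4.03, 49.7 and 44.6 TPM, was at 0.0649 to 0.199 TPM in KO, full medium and listed at 0 in labelled wildtype, EBSS. Creb3l1 was at 1.24 to 2 TPM and 4.55 to 5.98 TPM, and Trim30a at 0.298 to 0.557 TPM and 0.0187 to 0.334 TPM, both far under their levels in all 3 labelled KO, EBSS libraries.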

How the data were processed

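Poly(A) RNA of 12 MEF libraries was sequenced, and 6 of them enter this comparison. The deposited table holds TPM values, 1 column per library and 1 row per gene symbol; the submitters' processing notes name Salmon and mm10, while not given in the sources used here are Salmon's version and the annotation. The 6 columns sum to 98.4% to 99.4% of the full TPM total, and reads or depth cannot be recovered from TPM, so no counting interval is given.

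Genes that reached 1 TPM in 3 or more of the 6 libraries were tested with limma 3.58.1 (R 4.3.3) on log2(TPM + 1), with a variance trend and Benjamini-Hochberg adjustment over all 12152 genes at 0.05. Groups come from the sample labels. Each labelled KO, EBSS library was also set singly against the wildtype mean, with a 2-fold limit and no test. On simulated data with 200 changed genes of 12152, 76% were recovered at a log2 change of 1 and 95% at 2, and 11 of 182 calls were false (6.04%). The simulation drew each gene independently with the same spread in both groups, so it holds no library that stands apart. These rates therefore do not describe the calls made here. Positions come from GENCODE vM21 (GRCm38; 12064 tested genes matched), promoters from RefSeq (GRCm38.p6; 9700 genes matched). Python 3.11.15 and matplotlib 3.10.9 were used for summaries and plots.

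The genes named are Rbbp5, the 10 largest called rises and falls (mean TPM of at least 5, no overlap), up to 4 called members per list or the 2 largest, and the 10 largest differences of replicate 1 alone each way (TPM of at least 10); other list members were chosen as examples after their values were seen, and some genes are not reported here. The members, the 33 gene lists and the 8 marker lists were chosen with earlier results of these data known. Same-numbered libraries did not deviate together (r = 0.037, 0.043 and 0.013), so the numbers were not used as pairs. Alternatives tried were other pseudocounts, filters, scalings, variance models, a fit of all 12 libraries, a replicate block and leaving out each library.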

Additional observations from a re-analysis of the deposited data

How the results depend on the processing

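The size of the calls depended on the libraries and on the variance model far more than on the pseudocount. Against 423 called genes (120 higher, 303 lower), the count was 1 (1 higher, 0 lower) of 19645 genes with no filter on low values (3469 at an unadjusted p under 0.05), 184 with 67 lower under median-of-ratios scaling, and 243 with 103 lower under quantile normalization. It was 19 (12 higher, 7 lower) in a fit of all 12 libraries, 6303 (1897 higher, 4406 lower) with library weights, 262 (67 higher, 195 lower) without a variance trend and 263 (73 higher, 190 lower) with robust variances. With the replicate block limma called 0 (0 higher, 0 lower; 2365 at an unadjusted p under 0.05); the libraries share only a number, and their deviations correlated at 0.037, 0.043 and 0.013. Leaving out each library in turn gave 0 to 5423 calls, 0 to 1552 higher and 0 to 3871 lower; the highest were without labelled KO, EBSS replicate 1, whose library weight was 0.0412 against 1.17 to 5.18 for the others. The cause was not tested. For the single libraries, a mean TPM of at least 5 left 21 higher and 23 lower genes in replicate 2 and 23 higher and 12 lower in replicate 3, and a pseudocount of 0.1 gave 53 higher genes in replicate 3. Of 96 named genes 2 reversed: Rbbp5 was at −0.109 with library weights and between −0.126 and 0.102 with a library left out, and Nes at 0.216 and between −0.574 and 0.234. Of the 49 called, 49 lost the call with the replicate block and 48 or 49 without any one of the libraries other than labelled KO, EBSS replicate 1, 48 with no filter, 41 in the fit of all 12 libraries, 22 under median-of-ratios scaling, 20 under quantile normalization, 13 each without a variance trend and with robust variances, 9 without ribosomal protein genes and 1 with a pseudocount of 0.1. Depth is unknown, so what it limits cannot be given.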

Other observations

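Circadian clock genes also set replicate 1 apart: 4 of 20 tested were at least 2-fold higher in it and 0 in replicates 2 and 3. Ciart, a repressor of the clock, was at 8.93, 8.87 and 8.86 TPM in wildtype and 40.6, 9.13 and 9.41 TPM in replicates 1, 2 and 3 of labelled KO, EBSS. Cry1, another repressor, was at 15.6, 14.9 and 16 TPM and 34, 14.9 and 14.6 TPM. Hlf, a clock output factor, was at 5.29, 5.72 and 5.41 TPM and 14.2, 6.08 and 6.28 TPM. Dbp, of the same family, was at 5.41, 5.27 and 5.3 TPM and 11.7, 6.01 and 5.95 TPM. Of 33 p53 targets and CDK inhibitors 4 were at least 2-fold higher in replicate 1, among them Gadd45a at 64, 66.6 and 65 TPM and 230.2, 73 and 60.9 TPM. Bbc3 (PUMA), a pro-apoptotic gene, was at 8, 8.85 and 8.51 TPM and 23.5, 10.8 and 10.4 TPM. Cdkn1a (p21) was at 131, 129.6 and 137 TPM and 179, 132 and 122 TPM. None of these genes was called by limma over the 3 libraries.

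Glycolysis and hypoxia genes were lower in replicate 1 than in all 5 other libraries for 26 of 33 members (median −0.31). Ribosome biogenesis genes were higher for 39 of 48 (median 0.29). In either list 0 were called, where 3.48% of all genes were. Ldha, lactate dehydrogenase, was at 1529, 1429 and 1435 TPM and 769, 1257 and 1291 TPM. The mitophagy receptor gene Bnip3 was at 154, 159.9 and 151 TPM and 71.9, 129.8 and 134 TPM. Nop14, of the small ribosomal subunit processome, was at 97, 103 and 97.9 TPM and 188, 105 and 98.5 TPM. Of 41 cytosolic and mitochondrial chaperones, replicate 1 was above all 5 other libraries for 15 and below them for 13 (median −0.02). The mitochondrial protease gene Lonp1 was at 167, 168 and 168 TPM and 382, 162 and 158 TPM. The chaperone gene Hspa9 was at 877, 833 and 838 TPM and 1651, 771 and 743 TPM. Txnip, a glucose-responsive inhibitor of thioredoxin, was at 44, 48.9 and 48.9 TPM and 126, 53.4 and 47.4 TPM. Of 17 tested Hox genes 0 were called, where 3.48% of all genes were. Among the 17, 0 were 2-fold in any of the 3 libraries, with medians of −0.19, 0.03 and 0.05. The genes named in these 2 paragraphs were chosen after their values were seen.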
